A study of Mus musculus with 11 samples.

Results

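The genes examined here encode the factors that start and extend protein chains on cytosolic ribosomes, together with the proteins named as their binding partners and modifiers. They were taken from the deposited count table as every protein-coding gene whose symbol begins with Eif1 to Eif6 or with Eef1 or Eef2, without the Eif2ak kinases, which gave 68 of 47131 genes. Transcripts selected by their poly(A) tails were sequenced from mouse colorectal organoids, epithelial cultures that were grown in a Matrigel matrix from colon tissue of C57BL/6J mice labelled as female and 6 to 8 weeks old. A treated group of 6 libraries had received 10 pM NAP over 48 h, and 5 libraries came from control organoids kept for the same time. What NAP stands for is not in the labels, whose accounts of the controls differ: no treatment by one, phosphate-buffered saline by another. All 11 libraries carry batch label 1. They are called biological replicates without a statement that each came from its own animal or culture, so a p-value here reflects library-to-library spread that may be technical.

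Translation starts when a ternary complex of eIF2, GTP and initiator tRNA joins a small ribosomal subunit that carries eIF1, eIF1A and the large scaffold eIF3. The eIF4F complex (the cap-binding protein eIF4E, the scaffold eIF4G and the helicase eIF4A) brings this subunit to the capped mRNA, and eIF5 and eIF5B complete the joining of the large subunit. The exchange factor eIF2B recharges eIF2 with GTP, and its activity is the step that the eIF2 kinases restrain under stress. In elongation, eEF1A delivers charged tRNAs, the eEF1B complex recharges eEF1A, eEF2 moves the ribosome by a codon, and the hypusine-bearing protein eIF5A helps at slow codons. In the renewing intestinal epithelium these factors serve the high protein output of dividing and secreting cells.

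The gamma subunit of eIF2 is encoded in the mouse by an X-linked and a Y-linked copy, Eif2s3x and Eif2s3y, and these genes bear on the labelled sex. In GRCm39 coordinates of the deposited table, Eif2s3y lies at chrY:1010562-1049136, plus strand, and Eif2s3x at chrX:93232315-93256257, minus strand. Their longest reading frames in GENCODE M21 transcripts are 1419 bases long each and 86.3% identical, and no window of 100 bases of one is found unbroken in the other. A stretch of 60 bases (reading-frame bases 601 to 660) was picked because no other stretch of that length differs at more bases. It is shown because its 14 differing bases, in capitals, are the kind of difference by which reads of the 2 copies can be told apart.
Eif2s3y: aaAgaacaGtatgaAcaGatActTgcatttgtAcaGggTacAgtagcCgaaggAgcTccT
Eif2s3x: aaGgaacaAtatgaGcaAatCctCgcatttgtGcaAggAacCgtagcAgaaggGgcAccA
Eif2s3y had a lowest value of 92.0, a median of 144 and a highest value of 173 CPM in the NAP libraries, against 79.6, 112, 109.6, 68.4 and 134 CPM in controls 1 to 5, where CPM is the count relative to the TMM-scaled library size. All 11 libraries thus held Eif2s3y reads. The other Y-linked genes went the same way: Ddx3y had 684 to 2049 counts in NAP libraries and 534 to 1475 in controls, Kdm5d 560 to 947 and 311 to 935, and Uty 418 to 1055 and 332 to 785. Xist, the RNA that coats the silenced X chromosome of female cells, had 0 to 5 counts in NAP libraries and 0 to 6 in controls. The reads of every library therefore went against the label female, in both groups alike.

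**Figure D1:**
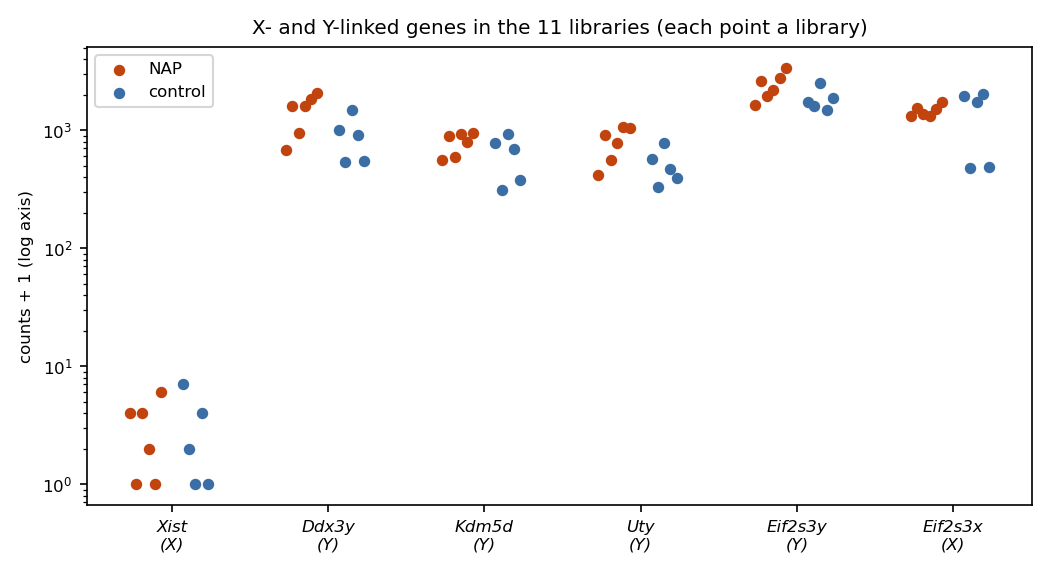
Counts per library (plus 1, on a log axis) of Xist, of 4 Y-linked genes and of Eif2s3x, with each point a library, NAP libraries in orange on the left of each pair and controls in blue. Xist stays at 0 to 6 counts in all 11 libraries, while Ddx3y, Kdm5d, Uty and Eif2s3y are above 300 counts in each.

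Total gene counts were 16546263 to 21947414 per library. The controls did not form a single cluster: controls 2 and 5 resembled each other (Pearson r = 0.992 of log2 CPM across genes), as did controls 1 and 4 (r = 0.979), while r between these pairs was 0.870 to 0.895. Counts of controls 2 and 5 differed by more than sampling noise (chi-square per degree of freedom 7.93), so they were kept as separate libraries. The score of absorptive colonocyte minus stem cell markers (mean log2 deviation) had a median of 0.590 in NAP libraries (−0.471 to 1.22) and of −1.08 in controls, with −2.48 and −3.62 in controls 1 and 4, and 2.38 and 2.30 in controls 2 and 5. The 8 epithelial markers summed to 10488 to 15038 CPM in NAP libraries and 10748 to 14776 CPM in controls. CPM in this paragraph carries no TMM scaling. The 7 immune, 6 fibroblast and 5 endothelial markers each summed to at most 21.9 CPM in NAP libraries and 15.4 CPM in controls, with Ptprc and Col1a2 among those at 0 in some libraries of both groups. The 7 neuron and muscle markers summed to 304 ± 153 CPM (78.0 to 481) in NAP libraries and 84.8 ± 46.2 CPM (36.0 to 138) in controls. Nearly all of this was Acta1, skeletal muscle actin, with means of 301 CPM in NAP libraries and 79.3 CPM in controls (log2 fold change 1.89, adjusted p = 0.0794), while Des, which encodes desmin, was at 0 in every NAP library and at 0 to 3 counts in controls. The mitochondrial chromosome took 6.51 ± 1.25% of counts in NAP libraries and 3.73 ± 0.897% in controls. Gene deviations also tracked transcript GC content differently, with a rank correlation across genes of −0.224 ± 0.264 in NAP libraries and 0.213 ± 0.147 in controls. The part of these library differences in the results below was not tested.

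Per transcript length, Eef1a1 and Eef2 stood far above the rest. Eef1a1, the major tRNA-delivering GTPase, averaged 5679 ± 1506 FPKM in NAP libraries and 6417 ± 1473 FPKM in controls (SD, n = 6 and n = 5 here and below), and Eef2, the translocase, averaged 1192 ± 172 FPKM in NAP libraries and 1678 ± 302 FPKM in controls. Eef1g and Eef1b2, subunits of the eEF1B exchange complex, and Eif2s2, the beta subunit of eIF2, completed the highest 5, with FPKM means of 431 and 525 for Eef1g, 327 and 381 for Eef1b2, and 438 and 312 for Eif2s2 (NAP libraries and controls in that order). Of the 68 genes, 18 had a mean of at least 100 FPKM over all libraries, 31 lay at 10 to 100, 10 at 1 to 10 and 9 under 1. The low end held the tissue-restricted genes: Eef1a2, the muscle and neuron form of eEF1A, had 0 to 11 counts in NAP libraries and 4 to 10 in controls, and Eif4e1b, an oocyte form of eIF4E, was at 0 in all 11, which allows up to 0.137 to 0.181 CPM (3 counts of a library's total, counting error only). Together the 68 genes took 2.48 ± 0.376% of counts in NAP libraries (1.94 to 3.09%) and 2.91 ± 0.121% in controls (2.77 to 3.06%). Eef1a1 and Eef2 alone made 55.8% of that share in NAP libraries and 59.5% in controls. In bulk RNA, fewer cells of a type and less RNA per cell cannot be told apart.

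Each gene was compared, NAP over control, with edgeR's quasi-likelihood test fitted on all 14840 genes that passed its filter on low counts, with Benjamini-Hochberg adjustment over them and a threshold of 0.05. Of the 68 genes, 62 passed the filter and 6 did not (Eif4e1b, Eef1akmt4-ece2, Eif4a3l1, Eif1-ps3, Eef1akmt3 and Eef1a2). One gene, Eif3g, was called lower (1.61% of the 62) and 0 were called higher, against 1.07% of all tested genes called lower and 1.05% called higher, so the number of calls was near the background. At an unadjusted p under 0.05, 18 genes were lower (29.0%) and 3 higher (4.84%), where 12.7% of all tested genes were lower and 10.8% higher. DESeq2 called 10 lower (16.1%, with 5.69% of all genes) and 0 higher (with 5.59% of all genes): Eef1d, Eef2, Eif2b2, Eif2b4, Eif2d, Eif3d, Eif3g, Eif3l, Eif4a3 and Eif5a. In 5 genes every NAP library lay below every control (Eif2d, Eif3g, Eif3l, Eif4a3 and Eif5a, 8.06%, with 2.57% of all genes), and in 0 genes did every NAP library lie above (with 2.14% of all genes). The log2 fold change was negative in 42 of 62 genes (67.7%, with 55.3% of all genes), and its median was −0.25, beside −0.07 over all tested genes.

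The calls depended on which libraries entered. Leaving out 1 library at a time gave 0 to 5 of these genes called lower and 0 to 814 genes called in all. Without controls 1 and 4, 6 were called lower (Eif3k, Eef1d, Eif4e2, Eif3g, Eif4ebp3 and Eif4ebp1, with 5.46% of all genes) and 2 higher (Eif4g2 and Eif4ebp2, with 2.82% of all genes). Without controls 2 and 5, 0 were called in either direction, with 2.61% of all genes lower and 2.71% higher, and 14 lower and 5 higher at an unadjusted p under 0.05. Both of these settings were chosen after the library pairs had been seen.

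**Figure D2:**
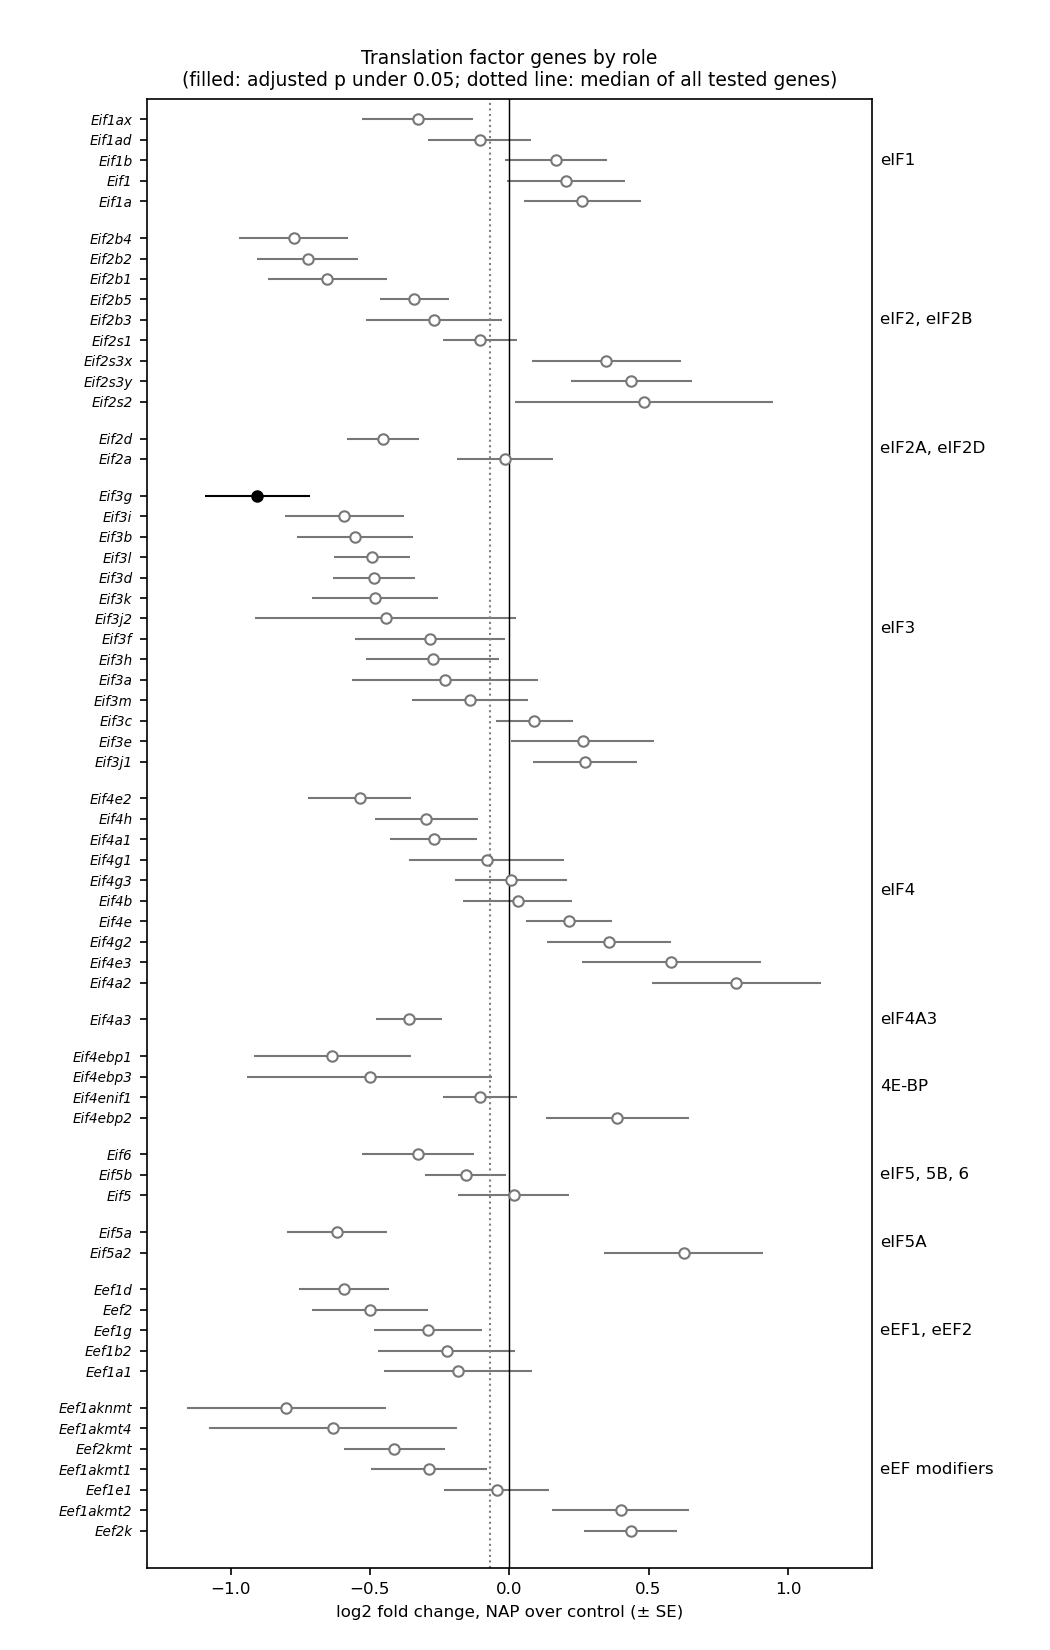
Log2 fold change of NAP over control (horizontal axis) for the 62 tested genes, in blocks by role and sorted within each block, with bars of 1 standard error, a filled point for adjusted p under 0.05 and a dotted line at the median of all tested genes. Eif3g at −0.90 is the filled point, all 5 eIF2B genes and all 5 tested eEF1 and eEF2 genes lie left of 0, and Eif4a2 at 0.82 is the highest.

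Among the genes of start selection, Eif1 and its relative Eif1b, which keep the scanning subunit open until a start codon is met, had log2 fold changes of 0.21 and 0.17. Eif1a and Eif1ax encode near-identical forms of eIF1A, which aids scanning. Eif1ax, on the X chromosome, had a lowest value of 40.8, a median of 50.7 and a highest value of 63.5 CPM in the NAP libraries, against 72.0, 47.2, 71.8, 84.7 and 49.0 CPM in controls 1 to 5 (log2 fold change −0.33, SE 0.20, adjusted p = 0.339). All 6 NAP values were below the control mean of 64.9 CPM, those of NAP 2, NAP 4 and NAP 5 lay below the lowest control, control 2, and the other NAP values fell within the range of the controls. Eif1a had 84.4 ± 15.6 CPM in NAP libraries and 70.3 ± 21.8 CPM in controls (log2 fold change 0.26, SE 0.21, adjusted p = 0.472), and its values overlapped too. In this group of 5 genes, 3 had a positive and 2 a negative log2 fold change, with 0 calls.

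The genes of the 3 eIF2 subunits and of the 5 subunits of the exchange factor eIF2B mostly differed in sign in the edgeR test. Eif2s1, the alpha subunit that the eIF2 kinases phosphorylate, averaged 73.5 ± 8.71 CPM in NAP libraries and 79.1 ± 9.35 CPM in controls (log2 fold change −0.11, SE 0.13, adjusted p = 0.665). Eif2s2, the beta subunit, had a lowest value of 539, a median of 1291 and a highest value of 1682 CPM in the NAP libraries, against 333, 1244, 788, 254 and 1430.0 CPM in controls 1 to 5. Its controls 1 and 4 were the lowest of all 11 libraries and its other controls stood among the NAP values, so the groups overlapped (log2 fold change 0.48, SE 0.46, adjusted p = 0.551). Eif2s3x had a lowest value of 73.5, a median of 81.1 and a highest value of 95.8 CPM in the NAP libraries, against 89.9, 33.6, 75.2, 92.8 and 34.6 CPM in controls 1 to 5. The NAP values lay together, whereas controls 2 and 5 held less than the other controls (log2 fold change 0.35, SE 0.27, adjusted p = 0.452). Eif2s3y, whose values stand above, had a log2 fold change of 0.44 (SE 0.22, adjusted p = 0.243). None of these 4 genes passed the test, 3 of them had a positive log2 fold change, and their median was 0.39. With trends on GC content and gene length removed in each library, Eif2s1 was at −0.42, Eif2s3y at −0.25, Eif2s2 at 0.09 and Eif2s3x at 0.14. The median GC content was 39.7% for these 4 genes and 53.2% for the 5 eIF2B genes. The part of GC content in the difference was not tested.

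All 5 eIF2B genes had a negative log2 fold change, 4 at an unadjusted p under 0.05, but 0 passed the adjusted threshold, and the median was −0.65. Eif2b2, the beta subunit, at chr12:85266255-85273402, plus strand, had a lowest value of 17.97, a median of 23.4 and a highest value of 30.3 CPM in the NAP libraries, against 41.2, 47.0, 29.0, 40.4 and 41.0 CPM in controls 1 to 5. Every NAP value but those of NAP 1 and NAP 3 lay below the lowest control, control 3 (log2 fold change −0.72, SE 0.18, adjusted p = 0.0540). Eif2b4, the delta subunit, at chr5:31344902-31350483, minus strand, had a lowest value of 18.2, a median of 25.5 and a highest value of 36.2 CPM in the NAP libraries, against 46.3, 48.5, 35.0, 47.9 and 48.0 CPM in controls 1 to 5. Control 3 was again the lowest control and NAP 3 the highest NAP library, and only these 2 crossed (log2 fold change −0.77, SE 0.20, adjusted p = 0.0564). DESeq2 gave adjusted p = 0.00890 for Eif2b2 and 0.00923 for Eif2b4, in ranges of 0.00890 to 0.190 and 0.00923 to 0.204 over 26 alternatives. Eif2b1, the alpha subunit, through which phosphorylated eIF2 is sensed together with the beta and delta subunits, had a lowest value of 32.5, a median of 43.7 and a highest value of 61.7 CPM in the NAP libraries, against 74.2, 57.5, 67.7, 96.1 and 53.8 CPM in controls 1 to 5 (log2 fold change −0.65, SE 0.21, adjusted p = 0.0952). All 6 NAP values were below the control mean of 69.9 CPM, with NAP 3 above controls 2 and 5. Eif2b5, the catalytic epsilon subunit, averaged 70.5 ± 4.55 CPM in NAP libraries and 89.2 ± 10.0 CPM in controls (log2 fold change −0.34, SE 0.12, adjusted p = 0.124), and Eif2b3, the gamma subunit, averaged 8.93 ± 2.57 CPM in NAP libraries and 10.8 ± 2.28 CPM in controls (log2 fold change −0.27, SE 0.24, adjusted p = 0.522). With trends on GC content and gene length removed in each library, the 4 largest of these values were Eif2b1 −0.64, Eif2b4 −0.45, Eif2b3 −0.43 and Eif2b2 −0.42, and 0 genes of the whole table were called.

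**Figure D3:**
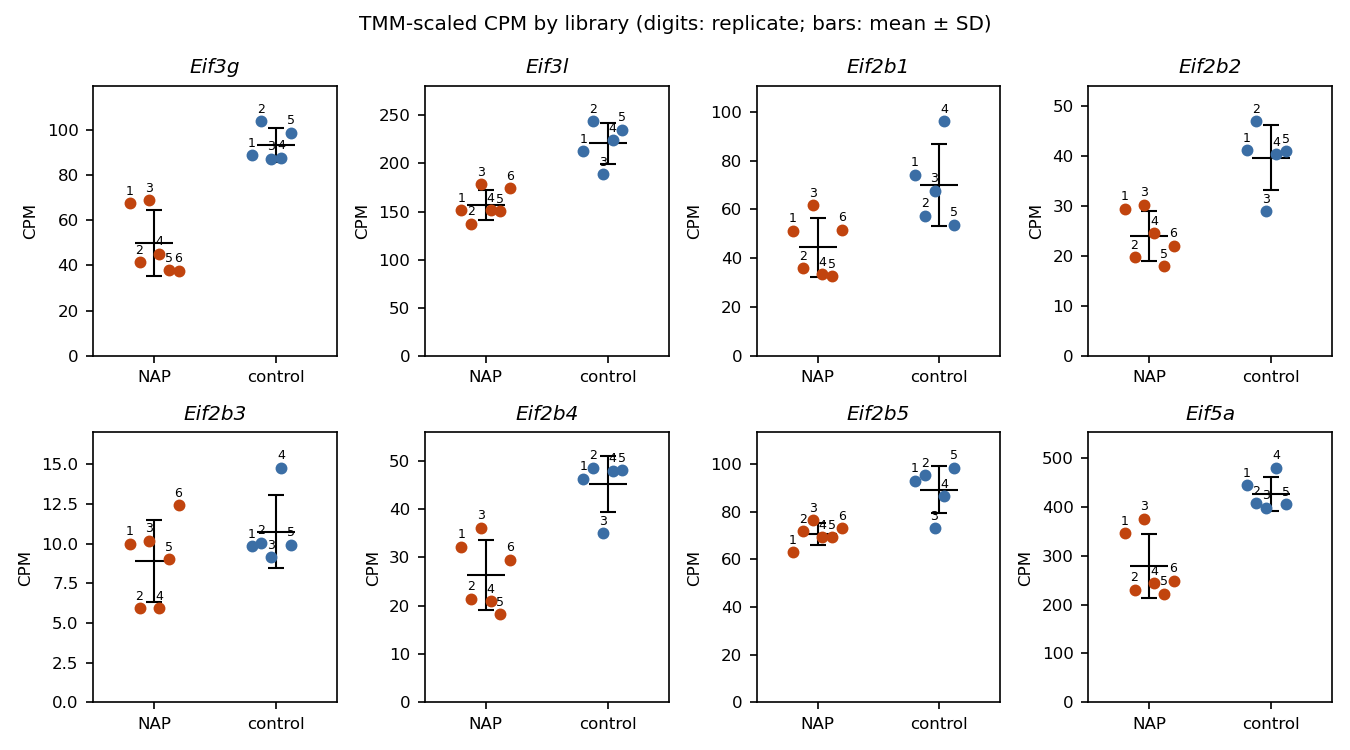
TMM-scaled CPM per library for Eif3g, Eif3l, the 5 eIF2B genes and Eif5a, with NAP libraries in orange and controls in blue, replicate numbers as digits, and bars for the mean ± SD (n = 6 and n = 5). NAP and control points do not overlap for Eif3g, Eif3l and Eif5a, and they do for each eIF2B gene.

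Of the 2 factors that can deliver initiator tRNA without eIF2 in test-tube assays, Eif2d had a lowest value of 28.8, a median of 30.3 and a highest value of 37.4 CPM in the NAP libraries, against 43.8, 49.1, 38.2, 42.8 and 45.1 CPM in controls 1 to 5. The highest NAP value, of NAP 1, was just under the lowest control, control 3 (log2 fold change −0.45, SE 0.13, adjusted p = 0.0726). Eif2a averaged 86.4 ± 21.1 CPM in NAP libraries and 87.2 ± 5.57 CPM in controls, with a log2 fold change of −0.01 whose sign turned with the scaling (0.0018 with RLE scaling). Its interval meets that of Serp1 on the opposite strand, a gene with more reads, and without a stated strand setting reads of the 2 cannot be told apart. Eif1ad, Eif3j1, Eif4enif1, Eif5b, Eef2kmt and Eef1akmt3 likewise meet Banf1, Spg11, Sfi1, Rev1, Alg1 and Mettl1 on the opposite strand.

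The scaffold eIF3, which holds the mRNA and other factors on the small subunit, gave 1 call lower and 0 higher among 14 tested subunits, with 11 negative log2 fold changes and a median of −0.36. Eif3g encodes an RNA-binding subunit at the mRNA entry side of eIF3 and lies at chr9:20805645-20809886, minus strand. It had a lowest value of 37.7, a median of 43.2 and a highest value of 68.8 CPM in the NAP libraries, against 88.7, 104, 87.2, 87.6 and 98.6 CPM in controls 1 to 5. All 6 NAP libraries were below all 5 controls, with NAP 1 and NAP 3 the nearest to them. The mean was 49.8 ± 14.5 CPM in NAP libraries and 93.2 ± 7.54 CPM in controls, which made Eif3g 1.87-fold lower in NAP libraries (log2 fold change −0.90, SE 0.19, adjusted p = 0.0417). Over 26 alternatives its adjusted p ranged from 0.00144 to 0.140 and was under 0.05 in 12, and its log2 fold change was −0.53 with GC and length trends removed. The call was lost without any 1 of NAP 2, NAP 4, NAP 5, NAP 6 and controls 1, 2, 3 and 5 (adjusted p 0.0578 to 0.116), each time with a log2 fold change between −0.92 and −0.82.

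Eif3l, a further eIF3 subunit, had a lowest value of 137, a median of 151 and a highest value of 178 CPM in the NAP libraries, against 213, 244, 189, 224 and 235 CPM in controls 1 to 5. The groups were separate here too, though NAP 3 and control 3 lay close (log2 fold change −0.49, SE 0.14, adjusted p = 0.0652). Eif3k, the usual partner of Eif3l, had a lowest value of 98.7, a median of 124 and a highest value of 146 CPM in the NAP libraries, against 122, 234, 161, 104 and 247 CPM in controls 1 to 5. Controls 2 and 5 were the highest libraries and controls 1 and 4 fell among the NAP values (log2 fold change −0.48, SE 0.23, adjusted p = 0.220, and 0.0315 without controls 1 and 4 within a range of 0.0315 to 0.932 over its alternatives). Eif3d, which can bind the mRNA cap, averaged 125 ± 17.9 CPM in NAP libraries and 175 ± 22.2 CPM in controls (log2 fold change −0.48, SE 0.15, adjusted p = 0.0815). Eif3i and Eif3b, which sit together with Eif3g, had log2 fold changes of −0.59 (adjusted p = 0.123) and −0.55 (adjusted p = 0.136). The largest subunit, Eif3a, ranged from 88.5 CPM in control 2 to 342 CPM in control 4, with NAP libraries at 149 to 224 CPM in between (log2 fold change −0.23, SE 0.33, adjusted p = 0.705). Eif3c, Eif3e and Eif3j1 had positive values of 0.09, 0.26 and 0.27. The remaining subunits, Eif3f, Eif3h, Eif3m and Eif3j2, lay between −0.44 and −0.14. Eif3j1 and Eif3j2 share 99.7% of the 100-base windows of their reading frames, so the split of reads between them is uncertain.

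The cap-binding and helicase genes of the eIF4 group gave 0 calls among 10 tested, with 6 positive values and a median of 0.02. Eif4a1 and Eif4a2 encode paralogous forms of the eIF4A helicase, whose reading frames are 78.1% identical. Eif4a2 had a lowest value of 366, a median of 841 and a highest value of 1047 CPM in the NAP libraries, against 311, 438, 609, 279 and 482 CPM in controls 1 to 5. NAP 2, 4, 5 and 6 were above every control, while NAP 1 and NAP 3 lay among the controls (log2 fold change 0.82, SE 0.30, adjusted p = 0.132). Eif4a2 is the host gene of several snoRNAs, whose own intervals inside it held at most 27.6 counts on average, and it meets Rfc4 on the opposite strand, which had 198 counts on average. Eif4a1 had a lowest value of 376, a median of 436 and a highest value of 529.7 CPM in the NAP libraries, against 492, 517, 557, 605 and 519 CPM in controls 1 to 5 (log2 fold change −0.27, SE 0.16, adjusted p = 0.310). All 6 NAP values were below the control mean, and those of NAP 3 and NAP 6 fell within the controls' range. The FPKM ratio of Eif4a2 to Eif4a1, which was chosen with earlier results known and has no test here, was 0.714 ± 0.307 in NAP libraries and 0.327 ± 0.103 in controls.

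Eif4e, the main cap-binding protein, averaged 98.8 ± 16.9 CPM in NAP libraries and 85.1 ± 10.8 CPM in controls (log2 fold change 0.22, SE 0.15, adjusted p = 0.417). Eif4e2, a cap-binding homologue used in translational repression, had a lowest value of 60.8, a median of 70.1 and a highest value of 75.9 CPM in the NAP libraries, against 77.3, 131, 88.2, 71.0 and 135 CPM in controls 1 to 5. Its controls 2 and 5 stood well above the other libraries, and control 4 lay within the NAP range (log2 fold change −0.54, SE 0.18, adjusted p = 0.108). Eif4e3, a further homologue, was at 4.75 to 11.97 CPM in NAP libraries and 2.65 to 7.27 CPM in controls (log2 fold change 0.58, SE 0.32, adjusted p = 0.294). Among the scaffolds, Eif4g1 had a lowest value of 382, a median of 434 and a highest value of 599.9 CPM in the NAP libraries, against 742, 265, 448, 656 and 274 CPM in controls 1 to 5. The NAP libraries lay between the control pairs, with controls 1 and 4 highest and controls 2 and 5 lowest (log2 fold change −0.08, SE 0.28, adjusted p = 0.882). Eif4g2, also called DAP5, lacks the eIF4E-binding part of eIF4G and had a lowest value of 652, a median of 751 and a highest value of 784 CPM in the NAP libraries, against 707, 362, 574, 815 and 403 CPM in controls 1 to 5. Controls 2, 3 and 5 were below every NAP library, control 4 was above them all and control 1 lay among them (log2 fold change 0.36, SE 0.22, adjusted p = 0.349, and 0.0379 without controls 1 and 4 within a range of 0.0379 to 0.808). Eif4g3 had a log2 fold change of 0.0072 (adjusted p = 0.986), Eif4b, a helicase cofactor, 0.03 (adjusted p = 0.940), and its relative Eif4h −0.30 (adjusted p = 0.352).

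Eif4a3, a helicase of the same family that belongs to the exon junction complex rather than to eIF4F, had a lowest value of 59.7, a median of 68.8 and a highest value of 74.0 CPM in the NAP libraries, against 86.9, 82.8, 80.8, 89.4 and 92.9 CPM in controls 1 to 5. The groups did not overlap, with NAP 3 the nearest to the lowest control (log2 fold change −0.36, SE 0.12, adjusted p = 0.0993). With GC and length trends removed, Eif4a3 was at −0.09 (adjusted p = 0.737, in a range of 0.0248 to 0.737 over 26 alternatives). The 4E-BP proteins hold eIF4E away from eIF4G until mTORC1 phosphorylates them. Eif4ebp1 had a lowest value of 37.4, a median of 54.5 and a highest value of 64.8 CPM in the NAP libraries, against 61.0, 126, 74.2, 35.2 and 109 CPM in controls 1 to 5. All NAP values were below the control mean, with control 1 among them and control 4 lower than any of them (log2 fold change −0.64, SE 0.28, adjusted p = 0.196). Eif4ebp2 had a lowest value of 56.4, a median of 66.2 and a highest value of 83.7 CPM in the NAP libraries, against 74.5, 33.0, 45.0, 80.4 and 30.5 CPM in controls 1 to 5, so that 2 controls lay at or above the NAP median and 3 below every NAP library (log2 fold change 0.39, SE 0.26, adjusted p = 0.382). Eif4ebp3 spread the most, with a lowest value of 46.2, a median of 53.5 and a highest value of 65.2 CPM in the NAP libraries, against 28.3, 143, 47.2, 20.9 and 145 CPM in controls 1 to 5. Controls 2 and 5 were more than 2-fold above every NAP library, and controls 1 and 4 below all of them (log2 fold change −0.50, SE 0.44, adjusted p = 0.513). Its log2 fold change was −1.01 without controls 1 and 4 (adjusted p = 0.0465) and 0.78 without controls 2 and 5 (adjusted p = 0.0630), in a range of 0.0465 to 0.982 over its alternatives. The eIF4E transporter gene Eif4enif1 had a log2 fold change of −0.11 (adjusted p = 0.666).

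Of the genes of subunit joining, Eif5, the GTPase activator of eIF2, had a log2 fold change of 0.02 (adjusted p = 0.969), Eif5b, the joining GTPase, −0.16 (adjusted p = 0.540), and Eif6, which keeps free large subunits apart, −0.33 (adjusted p = 0.347). Eif5a, the carrier of hypusine, had a lowest value of 222, a median of 246 and a highest value of 375 CPM in the NAP libraries, against 444, 407, 398, 479.8 and 405 CPM in controls 1 to 5. Every NAP library was below every control, with NAP 3 at 375 CPM beside control 3 at 398 CPM (log2 fold change −0.62, SE 0.18, adjusted p = 0.0744). Its interval meets that of Gps2 on the opposite strand, which had 495 counts on average beside 6418 for Eif5a. Eif5a2, its tissue-restricted paralog, was at 1.35 to 2.32 CPM in NAP libraries and 0.908 to 1.43 CPM in controls (log2 fold change 0.63, SE 0.29, adjusted p = 0.206). Only NAP 3 fell below the highest control.

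All 5 tested elongation factor genes had a negative log2 fold change with a median of −0.29, and 0 passed the test. Eef1a1 had a lowest value of 6252, a median of 10655 and a highest value of 14333 CPM in the NAP libraries, against 9909, 13955, 12173, 8557 and 14901 CPM in controls 1 to 5. The groups overlapped over most of their ranges, with NAP 1 the lowest of all libraries and NAP 6 above all controls but control 5 (log2 fold change −0.18, SE 0.27, adjusted p = 0.710). Eef2 had a lowest value of 2799.6, a median of 3928 and a highest value of 4231 CPM in the NAP libraries, against 5427, 6416, 4797, 4146 and 6158 CPM in controls 1 to 5. All 6 NAP values were below the control mean of 5389 CPM, and only control 4 fell within the NAP range (log2 fold change −0.50, SE 0.21, adjusted p = 0.169). Eef1d, the delta subunit of the eEF1B exchange complex, had a lowest value of 78.8, a median of 90.6 and a highest value of 125 CPM in the NAP libraries, against 119.9, 167, 135, 125 and 173 CPM in controls 1 to 5. Only NAP 3 reached the range of the controls (log2 fold change −0.59, SE 0.16, adjusted p = 0.0647). Eef1g averaged 695 ± 143 CPM in NAP libraries and 852 ± 93.9 CPM in controls (log2 fold change −0.29, SE 0.19, adjusted p = 0.380), and Eef1b2 averaged 653 ± 217 CPM in NAP libraries and 763 ± 167 CPM in controls (log2 fold change −0.22, SE 0.25, adjusted p = 0.606). These genes are classic carriers of the 5′ terminal oligopyrimidine (TOP) tract, which puts translation under mTORC1. In a list of 9 such factor genes, 7 were below 0 on the log2 scale, with a median of −0.28 and 0 calls.

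The modifiers of elongation factors gave 0 calls among 7 tested. Eef2k, the kinase that inhibits eEF2 by phosphorylation, had a lowest value of 41.9, a median of 48.7 and a highest value of 61.6 CPM in the NAP libraries, against 35.7, 28.6, 41.8, 46.5 and 31.5 CPM in controls 1 to 5. All 6 NAP values were above the control mean of 36.8 CPM, with control 4 inside the NAP range (log2 fold change 0.44, SE 0.17, adjusted p = 0.138). The methyltransferases of eEF1A ranged from −0.80 for Eef1aknmt (adjusted p = 0.198) to 0.40 for Eef1akmt2 (adjusted p = 0.348), with fewer than 20 CPM in any library. Eef1aknmt was at 3.64 to 9.65 CPM in NAP libraries, against 17.4, 5.87, 9.26, 19.5 and 7.52 CPM in controls 1 to 5. Its log2 fold change was −0.11 without controls 1 and 4 (adjusted p = 0.848) and −1.14 without controls 2 and 5 (adjusted p = 0.0611). Eef1akmt2 meets Fam53b on its own strand, so its few reads are uncertain. Eef2kmt, the methyltransferase of eEF2, averaged 16.8 ± 4.09 CPM in NAP libraries and 22.4 ± 1.65 CPM in controls (log2 fold change −0.41, SE 0.18, adjusted p = 0.190), and Eef1e1, a member of the multi-synthetase complex, had a log2 fold change of −0.04 (adjusted p = 0.906). The untested Eef1akmt3 had 0 to 7 counts in NAP libraries and 5 to 22 in controls.

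Several of these genes also varied widely within the controls. In 7 tested genes the mean of controls 1 and 4 was more than 2-fold that of controls 2 and 5, among them Eif3a, Eif2s3x, Eif4g1 and Eif4ebp2. In another 6 the mean of controls 2 and 5 was more than 2-fold that of controls 1 and 4, among them Eif4ebp3, Eif2s2, Eif4ebp1 and Eif3k. The median coefficient of variation over the 62 genes was 19.6% in NAP libraries and 21.2% in controls, beside 26.1% and 34.3% over all tested genes. Taken per library, the median deviation of the 62 genes from their means was −0.16 to 0.06 on the log2 scale in the 6 NAP libraries and 0.05 to 0.14 in the 5 controls. NAP 6 lay within the range of the controls, and the other 5 NAP libraries were below it.

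**Figure D4:**
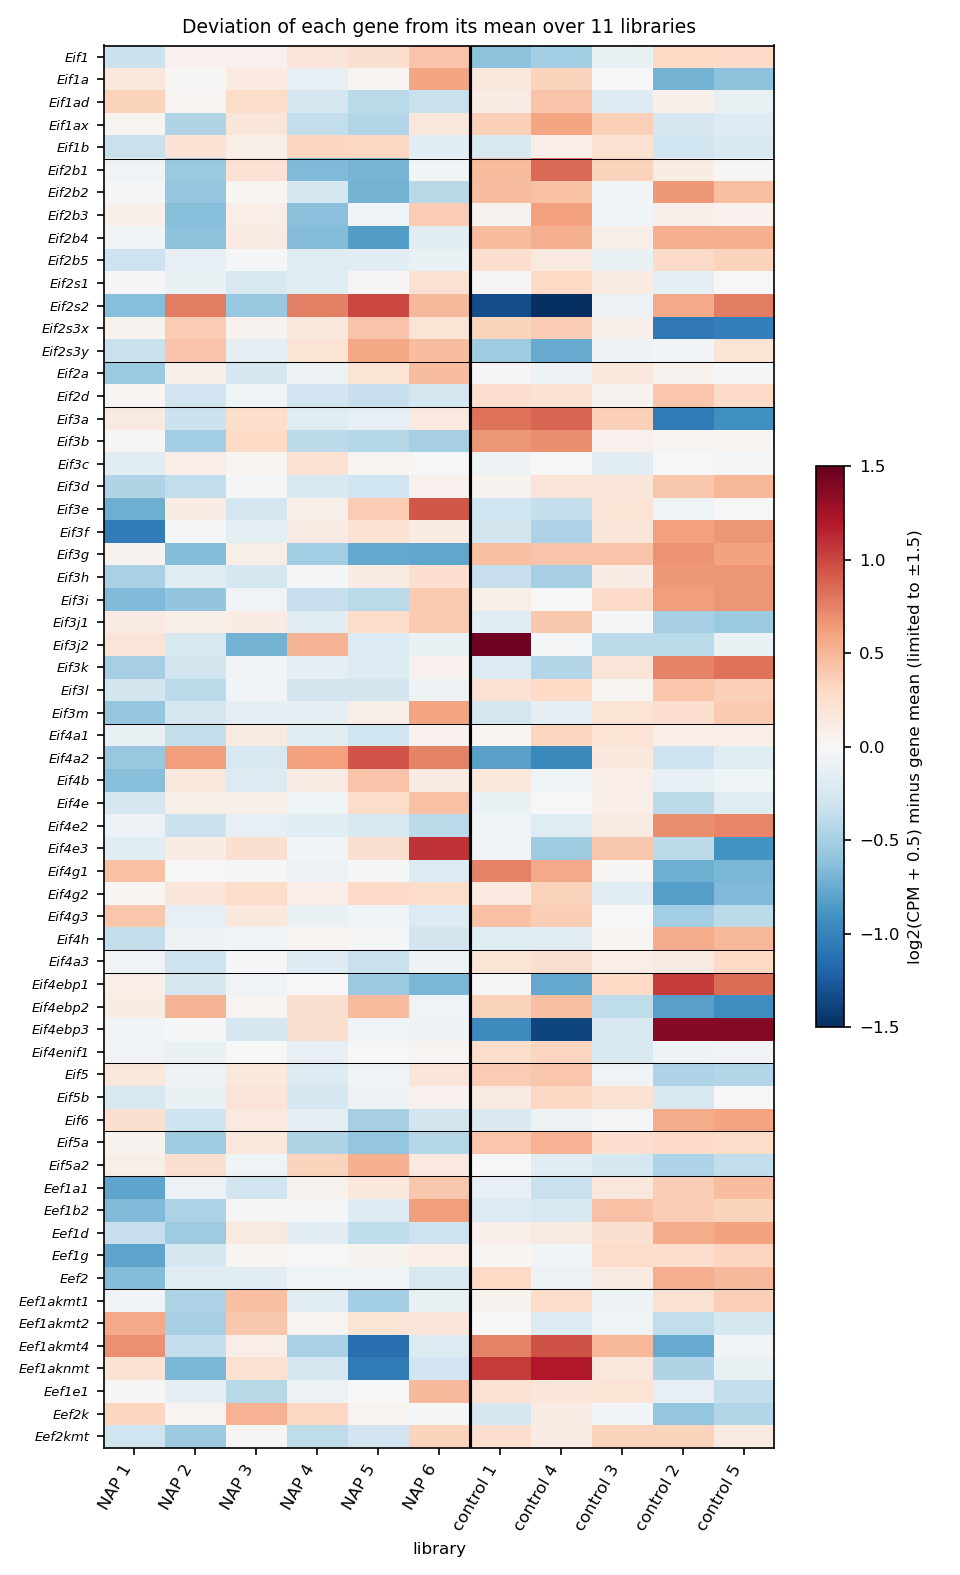
Deviation of log2(CPM + 0.5) from each gene's mean over 11 libraries for the 62 tested genes, limited to ±1.5, with NAP libraries on the left, controls on the right in the order 1, 4, 3, 2 and 5, and horizontal lines between role groups. Eif2s2, Eif3a, Eif4ebp3 and Eif4g1 change sign between controls 1 and 4 and controls 2 and 5, while Eif3g is below its mean in 4 of 6 NAP libraries and above it in all 5 controls.

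Start sites of the genes were compared for the E-box CACGTG, a palindrome that transcription factors of the MYC and USF families are known to bind, in windows of 250 bases before to 50 after the start from RefSeq (GRCm38.p6). Windows were matched for 51 of the 68 genes, 48 of them tested. A gene was counted where any of its windows held the motif. The E-box was found for 14 of these 48 genes (29.2%), with 11.6% of 10923 tested genes and 8.09% of all 27025 genes with a window. The ETS motif CCGGAAGT, searched on both strands, was found for 8 of 48 (16.7%), with 8.70% of tested genes and 4.31% of all genes with a window. The 6 sites of 30 bases below, picked from the 14, carry the E-box in capitals and are shown because genes with it had values on both sides of 0; the coordinates and the number of bases from the start follow them.
Eef2: acccggcgccgtCACGTGacgcacccaacc
Eif5a: aaggggcggggtCACGTGtgtgcgtcatcc
Eif3k: ctggaaggaaatCACGTGgtagacaaaaaa
Eif4e: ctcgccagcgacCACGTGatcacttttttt
Eef2k: cccggggacggcCACGTGagcccgggcgtg
Eif5a2: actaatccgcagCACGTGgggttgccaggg
The sites lie at chr10:81176576-81176605 on the plus strand for Eef2, at chr11:69921443-69921472 on the minus strand for Eif5a, and at chr7:28981915-28981944 on the minus strand for Eif3k. Those of Eif4e, Eef2k and Eif5a2 lie on the plus strand at chr3:138527028-138527057, chr7:120842788-120842817 and chr3:28781123-28781152. In the order shown, the E-box began at −43, −74, −44, −228, −31 and −142 bases from the start. Eef2, Eif5a and Eif3k had log2 fold changes of −0.50, −0.62 and −0.48, and Eif4e, Eef2k and Eif5a2 had 0.22, 0.44 and 0.63. Over the 14 genes with the E-box the median was −0.28 with 10 negative, and over the 34 without it −0.12 with 22 negative. The 8 eIF2 and eIF2B genes with a window held 0 E-boxes.

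Base composition moved with the fold changes. Across the 62 genes the rank correlation of log2 fold change with transcript GC content was −0.58, and with gene length 0.34. The same values over 13748 tested genes with a GC value were −0.42 and 0.26. These are descriptions across genes, which share the same 11 libraries and are not independent. The 31 genes below the median GC content of 49.8% had a median log2 fold change of −0.04 with 14 positive, and the 31 at or above it had −0.34 with 6 positive. Eif4a2, Eif5a2 and Eif2s2 belong to the low-GC set and Eif3g, Eif2b2, Eif2b4 and Eif5a to the other. Genes also went the other way, such as Eef1d (−0.59) and Eif4ebp1 (−0.64) in the low-GC set. In the other set, Eef2k (0.44) and Eif4ebp2 (0.39) did so.

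**Figure D5:**
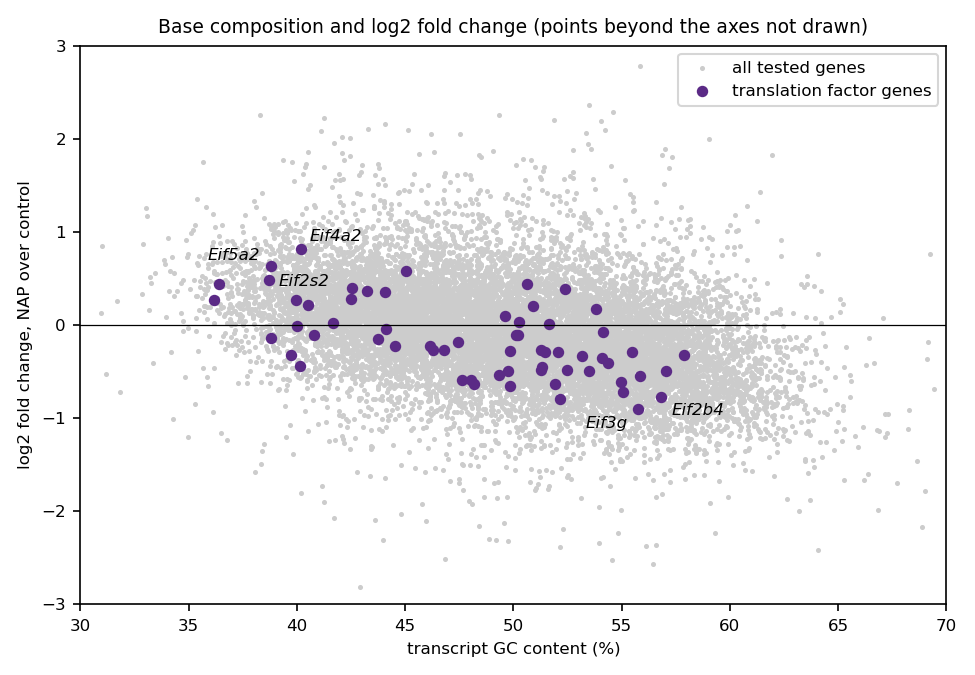
Log2 fold change of NAP over control (vertical axis) against transcript GC content in percent (horizontal axis), with all tested genes in grey and the translation factor genes in purple. Among the labelled genes, Eif4a2 at 0.82, Eif5a2 and Eif2s2 lie at low GC content above 0, and Eif3g at −0.90 and Eif2b4 lie at high GC content below 0.

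Related genes of the pathway were read from 7 lists. Of all tested genes, 1.07% were called lower and 1.05% higher, and 55.3% had a negative log2 fold change, with a median of −0.07. In 2.57% of all tested genes every NAP library lay below every control. Among 6 eIF2 kinases and phosphatase subunits 0 were called, the values nearest to the threshold being those of Eif2ak2, the kinase activated by double-stranded RNA, at 0.38 (adjusted p = 0.240) and of Ppp1r15b, which directs the phosphatase to eIF2, at 0.43 (adjusted p = 0.254). Among 13 genes of mTORC1 and its translation targets 1 was called lower and 0 higher, with 11 negative and a median of −0.11. It was Akt1s1, which encodes the mTORC1 inhibitor PRAS40, with a lowest value of 29.6, a median of 34.3 and a highest value of 55.2 CPM in the NAP libraries, against 85.6, 89.0, 58.7, 72.8 and 73.8 CPM in controls 1 to 5. The groups did not overlap (log2 fold change −0.94, SE 0.20, adjusted p = 0.0420). Leaving out any 1 of NAP 2, NAP 4, NAP 5, NAP 6 and controls 1, 2 and 5 ended this call (adjusted p 0.0718 to 0.118, in a range of 0.00223 to 0.142 over 26 alternatives). Pdcd4, an inhibitor of eIF4A, averaged 67.8 ± 14.9 CPM in NAP libraries and 45.4 ± 7.33 CPM in controls (log2 fold change 0.58, SE 0.18, adjusted p = 0.0878).

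Among 9 tested mitochondrial translation factor genes 1 was called lower (with 1.07% of all tested genes). In this list 7 were negative (with 55.3% of all tested genes) and the median was −0.13 (with −0.07 over all tested genes). The called gene was Tsfm, the exchange factor of mitochondrial EF-Tu, with a lowest value of 9.58, a median of 13.0 and a highest value of 18.6 CPM in the NAP libraries, against 29.6, 27.8, 21.3, 23.2 and 23.8 CPM in controls 1 to 5. Here too the groups did not overlap, as in 2.57% of all tested genes (log2 fold change −0.93, SE 0.20, adjusted p = 0.0417). The call was lost without any 1 of NAP 2, NAP 4, NAP 5, NAP 6 and controls 1, 2, 3 and 5 (adjusted p 0.0543 to 0.116, in a range of 0.00100 to 0.138 over 26 alternatives). Tufm, mitochondrial EF-Tu itself, averaged 123 ± 23.2 CPM in NAP libraries and 199.8 ± 64.1 CPM in controls (log2 fold change −0.70, SE 0.21, adjusted p = 0.0826). Among 9 hypusine and diphthamide enzyme genes 0 were called and 8 were negative, with a median of −0.24. Dohh and Dhps, the enzymes that make hypusine on eIF5A, had the smallest p-values. Dohh had a lowest value of 6.55, a median of 7.41 and a highest value of 15.5 CPM in the NAP libraries, against 21.0, 29.1, 18.2, 19.6 and 18.3 CPM in controls 1 to 5 (log2 fold change −1.13, SE 0.27, adjusted p = 0.0516), and Dhps averaged 19.8 ± 2.35 CPM in NAP libraries and 30.8 ± 8.54 CPM in controls (log2 fold change −0.64, SE 0.19, adjusted p = 0.0775). In both, every NAP library was below every control, as it was for Eif5a itself and for 2.57% of all tested genes. With GC and length trends removed, Dohh was at −0.52 (adjusted p = 0.210), Dhps at −0.25 (adjusted p = 0.299) and Eif5a at −0.38 (adjusted p = 0.261). Without controls 2 and 5, Dhps was at −0.29 (adjusted p = 0.233).

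The other 3 lists gave 0 calls each. Among 8 tested termination and recycling genes 5 were positive, and Pelo, a rescue factor for stalled ribosomes, averaged 11.2 ± 3.48 CPM in NAP libraries and 19.6 ± 1.42 CPM in controls (log2 fold change −0.81, SE 0.21, adjusted p = 0.0599), while the next, Mcts1, was at 0.28 (adjusted p = 0.260). Among 5 genes of poly(A)-binding proteins and their partners 4 were positive, with Pabpc4 at −0.58 (adjusted p = 0.0925) and Paip2 at 0.29 (adjusted p = 0.453). Among 5 genes of selenocysteine incorporation, Sepsecs, which makes selenocysteinyl-tRNA, averaged 60.9 ± 6.79 CPM in NAP libraries and 42.4 ± 4.98 CPM in controls (log2 fold change 0.52, SE 0.13, adjusted p = 0.0598), and Sephs2, which makes the selenium donor, was at −0.42 (adjusted p = 0.105).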

How the data were processed

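The authors deposited raw counts per gene, as whole numbers, and FPKM values for the same rows. Trimmomatic 0.39 for trimming, HISAT2 2.2.1 for alignment and featureCounts (Subread 2.0.8) for counting, with the GRCm39 build, are named per the submitters' processing notes. No strand setting, annotation release or rule for multiply matching reads is given in the sources used here. Each deposited FPKM value equalled the count over gene length times 1 constant per library. FPKM was used for levels between genes, and as log2(FPKM + 1) and log2(FPKM + 0.1) in alternatives.

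Counts were filtered with filterByExpr at its defaults, scaled with TMM and tested with the robust quasi-likelihood test of edgeR 4.0.16 (R 4.3.3), with no covariate. The SE is the log2 fold change divided by the root of its F statistic. CPM values carry the TMM scaling, except those in the paragraph on total counts and cell markers and the bound given for Eif4e1b. Alternatives used DESeq2 1.42.0 and limma 3.58.1, other scalings, filters and thresholds, libraries left out, a block for replicate number, and lowess trends on GC content and length (span 0.3). The procedure was tested on simulated counts. Reading frames and GC content came from GENCODE M21 (GRCm38) and were aligned with Biopython 1.88.

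The members and lists were chosen with earlier results of these data known. Library values are given for called genes, the 2 smallest p-values per role, the 5 largest and 5 smallest log2 fold changes, the 5 highest FPKM means and chosen paralogs (36 genes in all). Some of them are given as means ± SD or ranges, and Eif4g3, Eif5b and Eif6 by log2 fold change and adjusted p only. Values are also given for a few other genes chosen after their values were seen. In related lists the 2 smallest p-values are named. Replicate numbers were not treated as pairs.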

Additional observations from a re-analysis of the deposited data

Results flagged for a closer look

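A library was marked where its gap to the nearest other library of its group was large against the group's range (Dixon's test at the 95% level, in groups of 5 and 6 libraries). Among 152 groups of values, 10 held such a library, and chance alone marks about 1 group in 20. Eef2 in NAP 1 was the lowest of its group at 2800 CPM, with the other NAP libraries at 3734 to 4231 CPM. Eif4g1 was the highest in NAP 1 at 599.9 CPM, with the others at 382 to 440.2 CPM. NAP 6 held the highest values of Eif1a, at 114 CPM against 69.4 to 84.4 CPM, and of Eif4e3, at 11.97 CPM against 4.75 to 6.47 CPM. Among controls, Eif2b3 was highest in control 4 at 14.8 CPM, with the others at 9.17 to 10.1 CPM, and Eif2b4 was lowest in control 3 at 35.0 CPM, with the others at 46.3 to 48.5 CPM. Eif3f was lowest in NAP 1 at 233 CPM, with the other NAP libraries at 442 to 561 CPM. Eif3j2, whose reads cannot be told from those of Eif3j1, was highest in control 1 at 5.39 CPM, with the others at 1.12 to 1.60 CPM. Of the related genes, Tufm was highest in NAP 3 at 168 CPM, with the other NAP libraries at 102 to 122 CPM, and Dohh in control 2 at 29.1 CPM, with the others at 18.2 to 21.0 CPM.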

How the results depend on the processing

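As reported, 315 genes were called in all, 1 of them, Eif3g, among the translation factor genes, whose median log2 fold change was −0.25. Library totals alone gave 41 genes (22 higher, 19 lower), no filter on low counts 89 (56 and 33), DESeq2 1675 and an adjusted p of 0.10 1480. Removing the GC trend alone gave 0 (2622 genes at an unadjusted p under 0.05), as did removing GC and length trends (2590 genes). Trends were removed in edgeR only, and the DESeq2 setting had no trend removed. Leaving out controls 2 and 5 gave 824 and controls 1 and 4 1315. Translation factor genes called lower were 0 with library totals, no filter, either trend removed or controls 2 and 5 left out, 10 with DESeq2, 10 at an adjusted p of 0.10 and 6 without controls 1 and 4, where 2 were called higher. Their median was −0.17 with log2(FPKM + 1), −0.16 with GC and length trends removed, −0.16 without controls 2 and 5 and −0.10 without controls 1 and 4. Leaving out 1 library gave 0 to 814 genes, 0 to 5 translation factor genes called lower, 0 called higher and a median of −0.285 to −0.16. In all, 0 genes were called without NAP 2, NAP 4, NAP 5 or controls 1, 2 or 5, and the most without NAP 1 (814 genes) or NAP 3 (790 genes). Translation factor genes called lower were 0 in those same settings and also without NAP 6 or control 3. The median was −0.285 without NAP 6 and −0.16 without control 2.

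Same-numbered NAP and control libraries had correlations of their deviations of 0.463, 0.397, −0.164, −0.426 and 0.378 for numbers 1 to 5. Libraries of different numbers had −0.477 to 0.458. For each NAP library, controls 1 and 4 shared a sign and controls 2 and 5 had the opposite sign. These correlations therefore cannot decide whether the numbers mark pairs. A replicate block gave 0 genes called, 0 translation factor genes called (13 lower and 1 higher at an unadjusted p under 0.05) and a median of −0.26.

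The log2 fold change turned its sign in 1 or more settings for 27 of the 62 tested translation factor genes and the 14 related genes named in the text (other related genes were not counted), none of them called with all 11 libraries in edgeR, with these values after the turn. With RLE scaling, Eif2a was at 0.0018. With library totals alone, Eif4b was at −0.069, Eif4g3 at −0.11 and Eif5 at −0.10. With no filter, Eif2a was at 0.0027. With DESeq2, Eif2a was at 0.0018. With voom, Eif3a was at 0.0069 and Eif4g1 at 0.059. On log2(FPKM + 1), Eif4g1 was at 0.037. On log2(FPKM + 0.1), Eif4g1 was at 0.039. With the replicate block, Eif4b was at −0.025 and Eif4g1 at 0.076. With GC and length trends removed, Eif1a was at −0.063, Eif2ak2 at −0.0039, Eif2s3y at −0.25, Eif3e at −0.090, Eif4b at −0.0059, Eif4e at −0.25, Eif4ebp3 at 0.019, Eif4g3 at −0.015, Eif4h at 0.0020, Eif5 at −0.29, Eif6 at 0.14, Mcts1 at −0.14 and Paip2 at −0.12. With the GC trend alone removed, Eif1a was at −0.048, Eif2s2 at −0.015, Eif2s3y at −0.052, Eif3e at −0.24, Eif4e at −0.11, Eif4g1 at 0.039, Eif5 at −0.24, Mcts1 at −0.061 and Paip2 at −0.11. Without controls 2 and 5, Eef1a1 was at 0.061, Eif2a at 0.00059, Eif2s3x at −0.024, Eif3f at 0.11, Eif3h at 0.17, Eif3m at 0.045, Eif4b at −0.0095, Eif4ebp3 at 0.78, Eif4g3 at −0.22, Eif4h at 0.013, Eif5 at −0.20 and Eif6 at 0.0058. Without controls 1 and 4, Eef1e1 was at 0.10, Eif1 at −0.015, Eif1ad at 0.075, Eif3a at 0.42, Eif3j2 at 0.38, Eif4enif1 at 0.11 and Eif4g1 at 0.48. With 1 library left out, Eef1e1 ranged from −0.15 to 0.027, Eif2a from −0.11 to 0.076, Eif3j2 from −0.62 to 0.25, Eif4b from −0.060 to 0.13, Eif4g1 from −0.21 to 0.13, Eif4g3 from −0.084 to 0.13 and Eif5 from −0.060 to 0.14. The cause of these differences between settings was not tested. Depth limits the genes under 3 CPM, such as Eif5a2 and Eif3j2.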

Other observations

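Ratios between paralogous or partner genes within a library do not depend on scaling. They are given as FPKM ratios without a test, and all but those of Eif4a2 to Eif4a1 and Eif2s3y to Eif2s3x were chosen after their values were seen. Eif1a over Eif1ax was 2.49 ± 0.352 in NAP libraries and 1.61 ± 0.128 in controls, and the lowest NAP ratio, 1.99 in NAP 3, was above the highest control ratio, 1.78 in control 1. Eif4g2 over Eif4g1 was 1.19 ± 0.227 in NAP libraries and 0.900 ± 0.139 in controls, and Eef1a1 over Eef2 was 4.74 ± 1.03 in NAP libraries and 3.82 ± 0.491 in controls, with overlap in both. Eif2s3y over Eif2s3x was 0.453 to 0.703 in NAP libraries, and in controls it was 1.21 and 1.40 in controls 2 and 5 and 0.267 to 0.528 in the other 3.

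Eif2s2 and Eif2s1 encode subunits of eIF2 that are held together in the complex, yet Eif2s2 was at 9.10 to 27.5 times the FPKM of Eif2s1 in NAP libraries and at 3.42 to 23.8 times in controls. Eif2s2 ran from 254 CPM in control 4 to 1682 CPM in NAP 5. Eif4ebp3 over Eif4ebp2 was 1.01 to 1.46 in NAP libraries, and in controls it was 6.72 and 7.36 in controls 2 and 5 and 0.404 and 0.590 in controls 4 and 1.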
